A study of Homo sapiens with 3 samples.

Results

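The deposited table of this series lists sequenced regions by gene, and 691 of its entries carry a dot in place of a gene identifier and symbol. These regions that name no gene were taken by that dot alone, without regard to their values. They made up 691 of 14338 entries in the block that sets the glucose-deficient library beside the control, and 691 of 14333 in the block of the glutamine-deficient library. After entries that repeat a region under several genes were merged, the blocks held 12238 and 12228 distinct regions, so 5.65% of the regions of the glucose block named no gene.

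The cells were 95D, an established human lung cancer line labelled wild type, with 1 library each for 3 cultures. Control cells were kept in control conditions for 48 h, and the other cultures were grown for the same 48 h without glucose or without glutamine, in medium with 10% dialyzed serum, after 24 h in complete medium. Per the labels' protocols, RNA of every culture was captured from lysate with a biotinylated copy of the long non-coding RNA DAMER made in vitro, although the sample titles speak of RNA sequencing only, and whether the control library is a capture is not settled by them. No group was replicated, so no test between cultures was possible and no p-value is given. Intervals at 95% of counts and ratios cover counting error only. Those of shares of regions take each region as an independent draw within 1 library, which was not tested. No interval covers variation between cultures.

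RNA from outside annotated genes is a regular part of libraries made from total RNA after removal of ribosomal RNA. Its known sources include transcripts that an annotation lacks, transcription that runs past the end of a gene, short-lived RNAs made at enhancers, and transcribed copies of repeats. A bait RNA can hold other RNAs by base pairing or through proteins that bind both. The table gives no coordinates for its regions, and its rows do not follow the genome, so where these 691 regions lie, their length, their strand and their sequence were not analysed here. Levels are therefore per region and not per length.

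Values were deposited in RPM, reads scaled to a common total of all reads. They moved in fixed steps of 1 or 0.5 fragment above an offset of 0.5 fragment, from which library totals follow: 3781862 fragments in the control, 18775814 for glucose deficiency and 18301581 for glutamine deficiency. A count of 0 fragments thus appears as 0.13221, 0.02663 or 0.02732 RPM, and allows a level of up to 0.793, 0.160 or 0.164 RPM (3 fragments). ATF4, a transcription factor that cells make under amino acid shortage and other stress, stood at 237 RPM in the control, while the libraries of glucose and glutamine deficiency gave it 998517 and 998557 RPM. Reads outside ATF4, its pseudogenes and RNF157, whose region overlaps such a pseudogene, were 12936 fragments (0.0689%) under glucose deficiency and 14450 (0.0790%) under glutamine deficiency.

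In the control library the regions that name no gene were mostly low, with a single region far above the others. Their lowest value was 0.132 RPM, their median 7.67 RPM and their highest 1888 RPM, with quartiles of 5.69 and 11.4 RPM. Together they held 35461 fragments, 0.938% of the control library and 4.27% of the fragments in listed regions. Regions that name a gene had a median of 7.93 RPM, with quartiles of 5.82 and 13.0 RPM. At 50 RPM or more stood 11 of the 691 (1.59%) and 328 of 11547 regions that name a gene (2.84%). The 286 regions named for long intergenic, antisense, divergent or microRNA host transcripts had a median of 7.67 RPM, and 9 of them (3.15%) reached 50 RPM. The median region without a gene thus matched the median long non-coding region to the third digit, and lay 1 fragment below the median of named regions (28.5 against 29.5 fragments). Both kinds of region ended sharply at the low side: leaving out regions at 0 to 2 control fragments, the lowest region without a gene had 11.5 fragments, and no listed region outside those had fewer than 9.5. The rule behind the list is not given in the sources used.

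**Figure D1:**
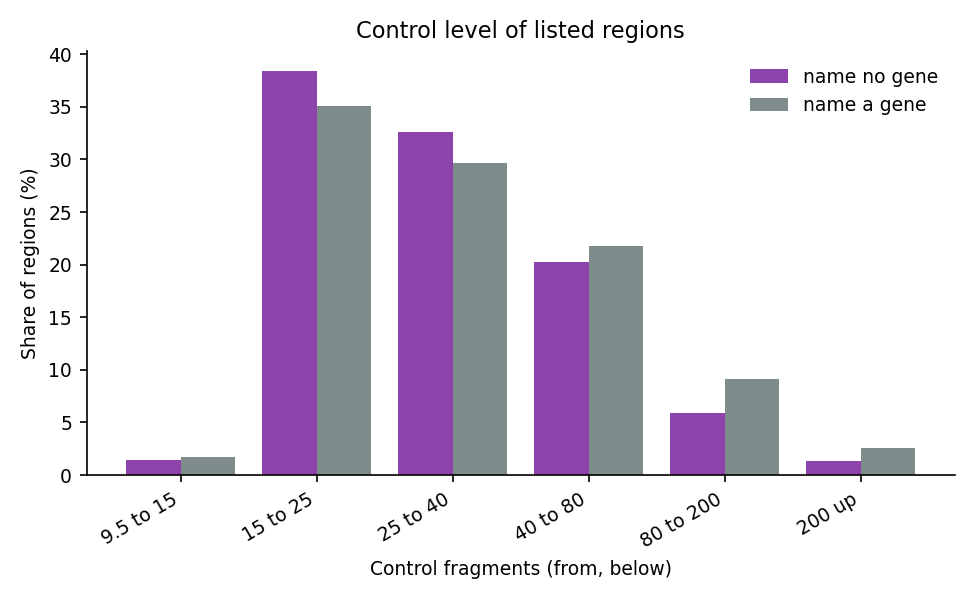
Share of listed regions (%, vertical axis) in 6 classes of control fragments (horizontal axis), for the 690 regions that name no gene and had control fragments and for regions that name a gene, ATF4 and its relatives left out. The 15 to 25 class is the largest of both, with 38.4% of the regions without a gene and 35.1% of the named ones, and 200 fragments or more are reached by 1.30% and 2.62%.

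The highest region without a gene stood at 1888 RPM in the control (7139.5 fragments), and it had 0 fragments in both deprived libraries. It alone held 20.1% of the control fragments of the 691 regions and was the 11th highest of all distinct listed regions. The next region without a gene was 6.55 times lower, at 288 RPM (1090 fragments), in 40th place, and it too had 0 fragments in both deprived libraries. The following 8 regions stood at 121, 99.7, 99.3, 89.6, 72.1, 54.9, 54.3 and 52.1 RPM in the control. Of these 8, the regions at 121 and 54.9 RPM had 2 fragments each in the glucose-deficient library (0.133 RPM), and the other 6 had 0. All 8 had 0 fragments in the glutamine-deficient library, so the 10 highest regions of the control were separated from both deprived libraries by more than 50 RPM each. These 10 regions held 30.1% of the control fragments of their kind.

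Set by library totals, the highest region was lower by at least 11815-fold under glucose deficiency (counting interval down to 9606-fold). Under glutamine deficiency it was lower by at least 11517-fold (down to 9364-fold). Library totals hold the reads of ATF4, so on this scale the values of all other regions are divided by a total that ATF4 nearly fills. With ATF4, its pseudogenes and RNF157 taken out of the totals, the region was at least 8.14-fold lower under glucose deficiency (counting interval down to 6.62-fold) and at least 9.10-fold lower under glutamine deficiency (down to 7.40-fold). On that scaling, 0 fragments place a region past 2-fold by its whole interval only from 2158.5 control fragments in the glucose comparison and 1932.5 in the glutamine comparison. Of the 691 regions only the highest had that many, and it was the single region (1 of 691) called lower in each comparison. Over all distinct regions 11 of 12238 (0.0899%) were called lower in this way in the glucose comparison and 18 of 12228 (0.147%) in the glutamine comparison. The second region, at 1090 control fragments, was at least 1.24-fold lower under glucose deficiency (counting interval down to 1.01-fold). Under glutamine deficiency it was at least 1.39-fold lower (down to 1.13-fold). A 2-fold loss of it was thus not detectable at this depth.

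Named regions of like level gave a setting for the highest one. RMRP, the RNA of RNase MRP, lay just below it at 1870 RPM in the control (7071 fragments), with 1 fragment under glucose and 0 under glutamine deficiency. RPPH1, the RNA of RNase P, whose region is also listed under ENSG00000259001, lay above it at 2473 RPM (9353 fragments), with 12 and 0 fragments. In all, 10 named regions outside ATF4 and its relatives had at least as many control fragments. In the glucose-deficient library none of these 10 was at 0, and they held 1 to 34 fragments. That is 0.0181 to 2.82 per 1000 control fragments, without scaling to library totals. In the glutamine-deficient library 5 of the 10 were at 0, while the 5 mitochondrial regions among them all kept fragments. A count of 0 of 7139.5 allows up to 0.517 fragments per 1000 by its exact Poisson interval, a limit inside the range of these named regions.

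**Figure D2:**
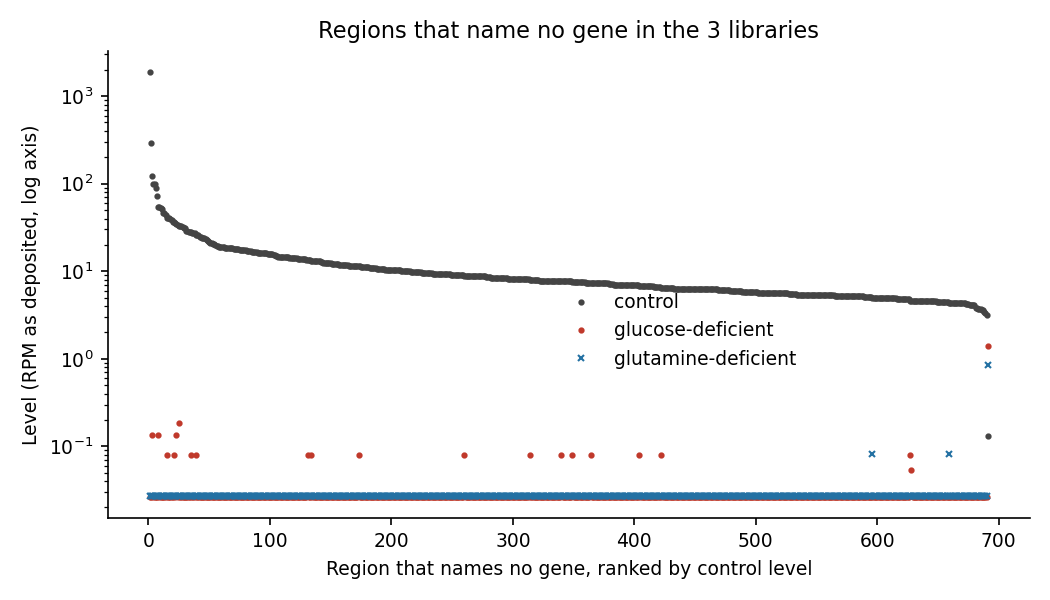
Level of each of the 691 regions that name no gene (RPM as deposited, log axis) in the control, glucose-deficient and glutamine-deficient libraries, ranked by control level. Regions were matched between blocks by control value. Points along the bottom are regions at 0 fragments (0.02663 and 0.02732 RPM, drawn over each other); the single region at the right end has 0.132 RPM in the control and the highest values of both deprived libraries, 1.41 and 0.847 RPM.

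The comparison of the glucose-deficient with the control library asks which regions differ in level between them. If the control library is not a capture, capture and the lack of glucose cannot be told apart in it. If it is one, the levels are those of captured RNA. On the log2(RPM + 1) scale, which understates the difference of low regions, 690 of the 691 regions fell below the control by 2-fold or more in the deprived library and 1 was called above it. That call, of the region at 0 in the control, rests on the offset and the pseudocount: against the floor of 3 control fragments the region was higher by at least 1.75-fold, which does not reach 2-fold. Among all distinct regions 12228 of 12236 tested (99.9%) were lower and 8 (0.0654%) higher, so the count of lower regions without a gene lay at the background of the list. Every listed region outside those at 0 to 2 control fragments had 9.5 or more of them. Lower calls were thus made in a list almost without regions low in the control, and on totals that ATF4 nearly fills. How much each bears on the calls was not tested, and the calls are a description. Their median log2 ratio was −3.08, against −3.12 over all regions, with a lowest value of −10.85. Of the 691 regions, 670 had 0 fragments there, a share of 97.0% (95.4 to 98.1, exact binomial), and 21 (3.04%, 1.89 to 4.61) had some. Of regions that name a gene, 534 of 11543 (4.63%, 4.25 to 5.03) had a fragment, a share just above the interval of the regions without a gene, while both intervals overlapped.

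Beside the region at 0 in the control, 20 regions kept a fragment in the glucose-deficient library, 24.5 fragments in all. The most were 3 fragments, in a region at 33.1 RPM in the control (124.5 fragments), which stood at 0.186 RPM. The regions at 121, 54.9 and 34.4 RPM in the control had 2 fragments each, and 15 regions had 1 fragment and 1 had 0.5. The control levels of the 20 ran from 4.63 to 121 RPM with a median of 12.3 RPM, and those of the 670 regions at 0 from 3.17 to 1888 RPM with a median of 7.54 RPM. The ranges overlapped almost whole, and the highest regions at 0 were higher in the control than any region that kept a fragment. The region with 3 fragments was 206-fold lower (68.9 to 1013) on library totals, but 7.04-fold higher (1.43 to 21.1) with ATF4 and its relatives out of the totals. It was picked for its fragments in this same library, which the interval does not cover. The interval also began below 2-fold, so no rise is read from it.

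The share of regions with a fragment was larger among regions of high control level, in both kinds of region. It was 1.13% (3 of 265) at 15 to 25 control fragments for regions without a gene and 2.0% (81 of 4051) for named regions. At 25 to 40 control fragments the shares were 2.67% (6 of 225) and 2.87% (98 of 3419). At 40 to 80 they were 2.14% (3 of 140) and 5.18% (130 of 2509), and at 80 to 200 they were 14.6% (6 of 41) and 11.3% (119 of 1055). Of regions at 200 or more, 2 of 9 without a gene (22.2%) and 101 of 302 named ones (33.4%) had a fragment. In each class the interval of the regions without a gene (0.444 to 6.13% at 40 to 80, for example) held the share of the named regions, so within classes no difference was detectable at this depth.

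**Figure D3:**
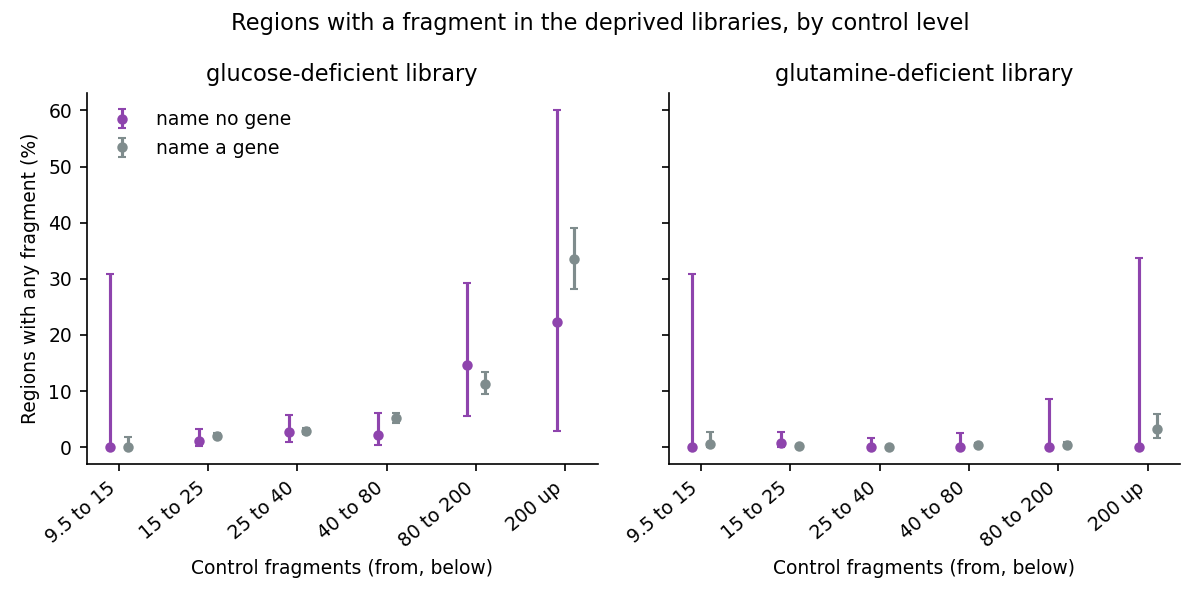
Share of regions with any fragment (%, vertical axis) in the glucose-deficient (left) and glutamine-deficient library (right) by class of control fragments (horizontal axis), for regions that name no gene and regions that name a gene; bars are exact binomial intervals at 95%. In the left panel both series climb to 22.2% and 33.4% at 200 fragments or more; in the right panel the regions without a gene are at 0 in every class but 15 to 25 (0.755%).

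The comparison of the glutamine-deficient with the control library asks the same for glutamine, with the same limit on capture. All 690 tested regions without a gene were at least 2-fold lower and 0 higher, beside 12223 of 12226 distinct regions lower (100% at 3 digits) and 3 (0.0245%) higher over the whole list. These lower calls, too, are a description, made on a list and totals of the same kind. The median log2 ratio was −3.08, against −3.12 over all regions. This median repeats that of the glucose comparison because both rest on the same control library and on offsets in place of fragments. Only 3 regions without a gene had a fragment in this library, and 688 of 691 (99.6%, 98.7 to 99.9) had 0. Outside the region at 0 in the control, these were regions at 4.36 and 4.89 RPM in the control (16 and 18 fragments), each with 1 fragment (0.0820 RPM). Both lay in the low part of the control range, while all 50 regions with 80 or more control fragments were at 0. Of named regions 36 of 11534 (0.312%) had a fragment here, and 10 of 302 (3.31%) at 200 or more control fragments.

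All 691 control values recurred in the second block, by which each region was followed across the 3 libraries, without coordinates to check the match. They took 161 distinct values, of which 64 were found once in each block, and in every group of tied values at least 1 deprived library had the same value throughout, so that no pair was ambiguous. Of the 691 regions, 668 (96.7%) had 0 fragments in both deprived libraries. A fragment was found in 21 regions under glucose and in 3 under glutamine deficiency, and 1 region had fragments in both. That region was the one at 0 in the control. Any region without control reads has that same control value, so the blocks may list different regions there, which was not tested.

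The region at 0 fragments in the control had 26 fragments in the glucose-deficient library (1.41 RPM, 0.905 to 2.03) and 15 in the glutamine-deficient library (0.847 RPM, 0.459 to 1.35). It was the highest region without a gene in both deprived libraries and held 26 of their 50.5 fragments in the first and 15 of 17 in the second. Because the control was sequenced to a smaller depth, its 0 allows up to 0.793 RPM. Against that floor and on library totals the region was higher by at least 1.03-fold under glutamine deficiency, beside the 1.75-fold under glucose deficiency given above, and the counting intervals of the ratio began at 0.741 and 1.32 in that order. A rise in the glutamine-deficient library was thus not detectable on library totals. With ATF4 and its relatives out of the totals the region was at least 2533-fold and at least 1308-fold higher, with intervals that began at 1917 and 938. It was the 1 region of 691 whose whole interval lay past 2-fold higher on that scaling, beside 36 of 12238 distinct regions (0.294%) in the glucose comparison and 7 of 12228 (0.0572%) in the glutamine comparison. With 0 control fragments it stands in the list by its deprived fragments alone, so this call came with the listing.

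Few listed regions shared the pattern of 0 control fragments. All 7 distinct regions at 0 to 2 control fragments in the glucose block had 11 or more fragments in the deprived library, and both such regions of the glutamine block had 12 or more. A region at 0 in the control thus stood in the list with deprived fragments alone, so its direction came with its listing and is a description. In the glucose block the others were LINC00343 and LINC02432, both long intergenic non-coding RNAs, with 33 and 106 fragments in the glucose-deficient library, and a region of the pseudogene ATF4P4 with 1754 fragments. In the glutamine block the region without a gene was the sole listed region at 0 in the control. Regions of UQCC1, NOL4L and RAD51B had 1, 1 and 2 control fragments in the glucose block, with 11, 45 and 17 fragments in the glucose-deficient library. A region of RAD51B, a gene of homologous recombination, was also listed in the glutamine block, with 1 control fragment and 12 in the glutamine-deficient library.

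Between the deprived libraries the region at 0 in the control was the single region without a gene at 1 RPM or more. Its ratio of glucose-deficient to glutamine-deficient was 1.69 (0.862 to 3.43) on library totals and 1.94 (0.988 to 3.93) with ATF4 and its relatives out of the totals, and both intervals held equality. These ratios hold only if both blocks list the same region at 0. The region at 0 in the control was not called. Over the whole list, 3 of 9 tested (33.3%) were 2-fold or more higher in the glucose-deficient library and 1 (11.1%) was 2-fold or more lower. All other regions without a gene were at 0.186 RPM or below in both libraries.

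Summed over regions, those without a gene kept fewer fragments under glutamine than under glucose deficiency. For every 1000 control fragments, the 690 regions with control reads kept 0.691 fragments (0.445 to 1.02) under glucose and 0.0564 (0.00683 to 0.204) under glutamine deficiency, and these intervals did not overlap. These are fragments as counted, without scaling to library totals, so they are not the fraction of an RNA that remained. Without the highest region the values were 0.865 (0.557 to 1.28) and 0.0706 (0.00855 to 0.255). Long non-coding regions kept 1.20 (0.684 to 1.94) and 0 (up to 0.276), and the other named regions outside mitochondria 1.11 (1.03 to 1.19) and 0.0439 (0.0296 to 0.0627). In all 3 kinds of region the interval under glutamine deficiency lay below that under glucose deficiency. The 10 mitochondrial regions, whose RNA is made inside that organelle, kept 0.921 (0.740 to 1.13) and 1.02 (0.832 to 1.25). In the glucose-deficient library the interval of the regions without a gene lay just below that of the other named regions, and with the highest region left out the intervals overlapped. That comparison therefore rests on 1 region.

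**Figure D4:**
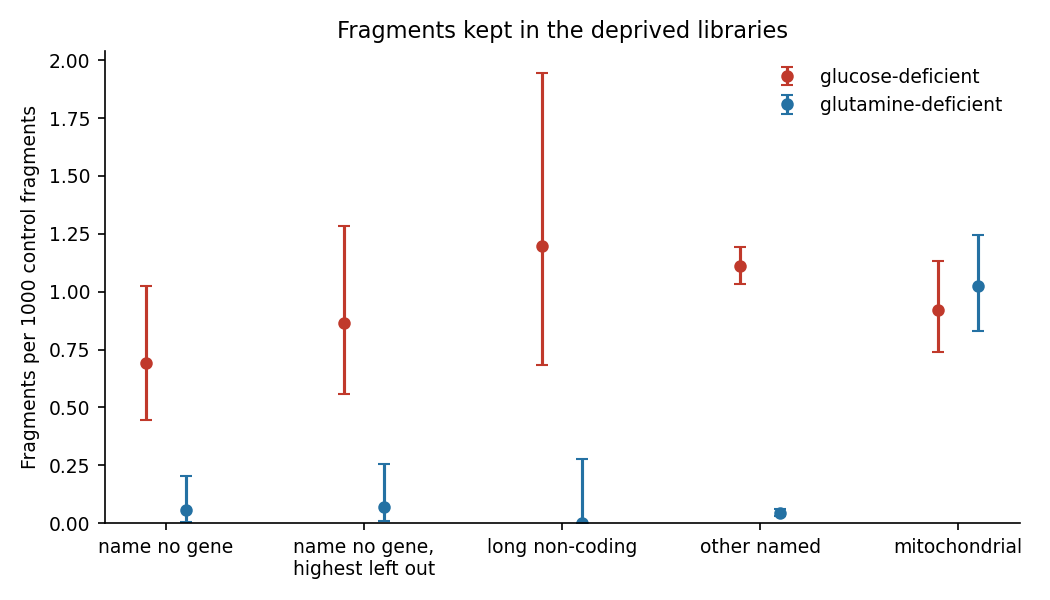
Fragments in the glucose-deficient and glutamine-deficient libraries per 1000 control fragments (vertical axis) for 5 sets of regions (horizontal axis), with exact Poisson intervals at 95% for the count of the deprived library. Fragments are as counted, without scaling to library totals. Regions without a gene stand at 0.691 and 0.0564, other named regions at 1.11 and 0.0439, and the mitochondrial regions at 0.921 and 1.02.

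Within the reads outside ATF4 and its relatives, regions without a gene held 0.938% of the control (0.928 to 0.948), 0.390% under glucose (0.290 to 0.514) and 0.118% under glutamine deficiency (0.0685 to 0.188). Without the region at 0 in the control the shares of the deprived libraries were 0.189% (0.122 to 0.281) and 0.0138% (0.00168 to 0.0500). Named regions fell in share too: those outside mitochondria that are not long non-coding held 18.1% of the control (18.0 to 18.1), 5.86% (5.45 to 6.29) under glucose and 0.208% (0.140 to 0.296) under glutamine deficiency. A smaller share in the deprived libraries was thus not particular to regions without a gene. The list holds almost only regions with 9.5 or more control fragments, so this fall describes the list, and its cause was not tested. Reads that fall outside the listed regions were not analysed here.

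In the order of the table the regions without a gene stood in 479 runs of consecutive rows in the first block and 482 in the second. Single rows made up 359 and 363 of these, and 46 and 45 runs held 3 or more rows. The longest run had 19 rows in both blocks, with control levels of 5.16 to 38.9 RPM (median 9.65 RPM) and 0 fragments in either deprived library. Values ending in a 0.5 fragment made up 36.8% of the control values of regions without a gene and 36.7% of those of named entries.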

How the data were processed

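RNA of 3 cultures of 95D cells, 1 library each, was sequenced as pairs of 150 nt. The submitters' processing notes name HISAT2 2.0.5 and hg38; the calling, counting, annotation and choice of regions are not given in the sources used. The authors deposited RPM values, per the file headers. The description of the glutamine-deficient sample cites the column of the glucose-deficient one; the sample's own file holds the values of the glutamine column, which was therefore used.

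Each value was divided by the step of its library, the offset of 0.5 was taken off and the result rounded to the nearest 0.5 fragment (largest distance from a step below 1000 RPM: 0.0143 fragment); with a tolerance of 0.1 fragment, 63.3% of control values, and 99.96% and 99.98% of the deprived values, were whole. On simulated data the recovery gave back the fragments put in for values below 1000 RPM. Those values were built with the same offset and steps, so this checks the calculation only, not the offset or the steps. Entries of equal value whose genes lie within 5000 bases in GENCODE release 29, or within 10 rows where a gene has no position there (5796 of 5932 identifiers had one), were taken as 1 region. Since the rows do not follow the genome, merges by row distance are an assumption that was not tested. Names came from the table or the gene name table, which held all 5932.

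Ratios are log2(RPM + 1) for regions at 1 RPM or more in either library, called past 2-fold. Ratio intervals are exact conditional binomial, shares exact binomial and sums exact Poisson, all at 95%. Bounds written as at least set 0 fragments to 3 per library. Described by rule were the 10 highest regions of the control, up to 10 with a fragment in each deprived library, regions higher in a deprived library, and named regions next to the highest one; genes of X inactivation or the Y chromosome were passed over, and the few other named genes were chosen after their values were seen. The members and lists were chosen with earlier results of these data known. Other pseudocounts, filters and totals, and values without the offset, served as alternatives. Intervals used scipy 1.17.1, tables pandas 2.3.3 with numpy 2.4.6, and figures matplotlib 3.10.9, under Python 3.11.15.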

Additional observations from a re-analysis of the deposited data

How the results depend on the processing

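The counts of lower regions depend on scaling by all reads. With ATF4, its pseudogenes and RNF157 out of the totals, 5 regions without a gene were lower and 639 higher in the glucose-deficient library, and 7 lower and 606 higher in the glutamine-deficient library. Of the regions called higher there, 619 of 639 and 604 of 606 had 0 fragments and owe the call to the offset, which is worth 38.7 and 34.6 RPM on that scale. All 5 and all 7 regions called lower had 0 fragments too. On that scale 0 fragments allow up to 232 and 208 RPM. The lower calls reached down to 89.6 and 72.1 RPM in the control, and those under that floor are not supported. With totals of the regions without a gene, 45 were lower and 114 higher, and 49 lower and 157 higher, and 100 of the 114 and 155 of the 157 had 0 fragments and again owe the call to the offset. Of the lower ones, 44 of 45 and 49 of 49 had 0 fragments. The 1 region higher in the glucose-deficient library was not called with a pseudocount of 5 RPM (0 higher) or a filter of 5 RPM (0 higher, since it was not tested). Among the 64 regions whose control value was found once in each block, which are mostly high in the control, the shares at 0 fragments were 85.9% and 98.4%, and 0 fragments per 1000 were kept in the glutamine-deficient library. With the region at 0 in the control included, an alternative chosen after seeing the data, the fragments kept per 1000 were 1.42 and 0.479. The comparison between the deprived libraries gave no value with a filter of 5 RPM, where no region was left. With 1 library per culture no library could be left out, and no paired analysis was possible because no culture has a replicate. The control, the shallowest library, limits the region at 0 there, and the few fragments outside ATF4 limit all others.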
